A study of Mus musculus with 15 samples.

Results

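The common gamma chain cytokine system was followed through 10 of its genes in RNA sequencing of mouse dendritic cells derived from bone marrow (BMDCs), a culture model of the cells that present antigen to T cells. The genes were listed by name, with earlier results of these data known, so counts of members called describe this chosen set. They were the ligand genes Il15 and Il7, the receptor chain genes Il15ra, Il2ra, Il7r, Il4ra, Il21r and Il13ra1, and the shared chain genes Il2rb and Il2rg. They are 10 of the 50554 genes in each table of read counts, and all 10 passed the filter on low counts that left 20865 genes for testing. Of 9 other genes of the family, listed apart, 5 passed it. There were 4 groups: Δ/DN cells with lipopolysaccharide (LPS; n = 4 libraries), Δ/+ cells with LPS (n = 3), Δ/DN cells left unstimulated (US; n = 4) and Δ/+ US cells (n = 4). Every mouse carried the tamoxifen-driven CreERT2 and a floxed Mysm1 allele that tamoxifen deleted (Δ), so the controls had lost 1 allele too. The other allele encoded a catalytically inactive MYSM1 in Δ/DN mice and was wild type in Δ/+ mice. MYSM1 is a deubiquitinase of histone H2A that is needed for normal blood cell formation. The labels do not restrict the deletion to 1 cell type, so the cultures grew from marrow that had been without the floxed allele for more than 12 weeks. Cells were cultured for 9 days with GM-CSF at 20 ng/mL and then kept for 18 h with LPS at 10 ng/mL, or without it; LPS is a bacterial cell wall component sensed by TLR4. The question put by the design is how the inactive MYSM1 alters dendritic cells at rest and after a microbial stimulus. No source used here gives the age of the mice or how many were used.

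The common gamma chain, encoded by Il2rg, is a signalling subunit shared by the receptors for IL-2, IL-4, IL-7, IL-9, IL-15 and IL-21. Each receptor adds its own chain or chains, and binding of the cytokine brings together the kinases JAK1 and JAK3, which activate STAT5, STAT6 or STAT3. In dendritic cells the family is best known for trans-presentation, in which IL-15 bound to the IL-15 receptor alpha chain on the cell surface is shown to T and NK cells carrying the beta and gamma chains. IL-7 and IL-15 keep lymphocytes alive, IL-4 and IL-13 alter the function of myeloid cells, and the IL-2 receptor alpha chain (CD25) is a known feature of mature dendritic cells.

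The libraries held 37256651 to 104041282 reads, and 24749 to 26828 genes had at least 1 read. Mysm1 itself stood at 30.8 to 40.0 CPM (reads scaled to a common library size with TMM factors) in Δ/DN LPS libraries against 41.3 to 44.6 in Δ/+ LPS libraries, and at 28.1 to 48.9 in Δ/DN US against 46.3 to 54.1 in Δ/+ US libraries. These counts cannot check the genotype, since the 2 genotypes differ in the protein that the remaining allele encodes. The letters A and C in the library names stand for Δ/DN and Δ/+ in the sample fields but for Δ/+ and Δ/DN in the series' design text. Genotype follows the sample fields here, and each Δ/DN minus Δ/+ difference changes sign if the design text is the correct one. Library names also begin with a 2 or a 3, which no source used here explains. Prefix 3, called library set 3 here, held both libraries of Δ/DN cultures 3 and 4 and 1 Δ/+ US library (replicate 4). The names tie the LPS and US libraries of a culture together, giving 4 Δ/DN and 3 Δ/+ cultures with both treatments. Both set 3 Δ/DN cultures stood apart: culture 3 had 1.94 and 3.69 CPM of the Y-linked Ddx3y, against 47.2 CPM or more in the other libraries of both genotypes apart from culture 4, and culture 4 had no Ddx3y reads and 1144 and 1166 CPM of Xist. Xist was at 0.0645 CPM or less in every Δ/+ library, so the female pattern of these 2 genes occurred in a Δ/DN culture only. The main model did not adjust for it, which bears on all genotype differences, those of the X-linked Il2rg and Il13ra1 included. Culture 4 also had the highest summed level of 9 neutrophil markers, at 931 CPM with LPS and 805 CPM without. The dendritic cell markers of these cultures, which include Itgax and Cd74, summed to at least 8396 CPM in every library. Markers of other cells also differed between genotypes. All 9 tested mast cell and basophil markers had positive Δ/DN minus Δ/+ differences (median log2 1.46 with LPS and 1.31 without; 2 and 1 called); the 11 listed summed to 41.9 to 73.5 CPM in Δ/DN LPS, 23.2 to 32.0 in Δ/+ LPS, 32.0 to 79.2 in Δ/DN US and 30.1 to 48.2 in Δ/+ US libraries. Of 10 macrophage markers, 1 was called higher and 1 lower in Δ/DN cells with LPS, and 3 higher and 1 lower without. Of 9 neutrophil markers, 1 was called higher in each treatment, and 9 with LPS and 8 without had positive differences (median log2 1.02 and 0.85). Of the 10 dendritic cell markers, 1 was called higher in each treatment, and 10 with LPS and 9 without were positive (median 0.26 and 0.11). Over all tested genes 8.6% were called between genotypes with LPS and 10.5% without. What part the cells of these lists had in the genotype differences of the members was not tested. In bulk RNA, fewer cells of a type and less RNA per cell cannot be told apart.

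With LPS 6 of the 10 genes were called higher in each genotype, and no member was called lower with TMM scaling. With library totals alone 4 were called higher in Δ/DN and 5 in Δ/+ cells, and Il4ra and Il21r were called lower in both. On that scale 13546 of the 20865 tested genes were called in Δ/DN and 13528 in Δ/+ cells, most of them lower. The same background holds for the LPS effects of the later lists with library totals. In Δ/DN cells the 6 were Il15, Il15ra, Il2ra, Il2rg, Il13ra1 and Il7r, beside 23.1% of all tested genes called higher (48.2% called in either direction). In Δ/+ cells they were Il15, Il15ra, Il2ra, Il2rg, Il13ra1 and Il4ra, beside 22.4% of all tested genes called higher (47.7% in either direction). The first 5 of each list were called in both genotypes. Every LPS library lay above every US library for 4 members in Δ/DN cells (20.1% of all tested genes did so) and for 7 members in Δ/+ cells (24.3%). The members' median log2 LPS effect was 0.86 in Δ/DN and 1.11 in Δ/+ cells, where the median over all tested genes was -0.09 and -0.08. The size depends on scaling: LPS libraries had TMM factors of 0.734 to 0.940 against 1.04 to 1.33 in US libraries. With library totals alone the median of all genes moved by -0.58 in Δ/DN and -0.65 in Δ/+ cells. The higher share of the calls over all genes was then 17.4% and 17.1%, in place of 48.0% and 46.9%. Il15, Il15ra, Il2ra and Il2rg stayed called higher in both genotypes on that scale, and Il13ra1 did in Δ/+ cells only.

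The 2 genotypes differed in fewer members. Without LPS, Il21r was higher and Il7r lower in Δ/DN cells, 2 of 10 members called beside 10.5% of all tested genes (5.01% higher and 5.45% lower). With LPS, Il21r was higher and Il4ra lower in Δ/DN cells, again 2 of 10 members beside 8.6% of all tested genes (5.37% higher and 3.23% lower). With library totals alone the balance over all genes moved: 80.8% of the calls with LPS were then higher in Δ/DN cells, where 62.5% were with TMM scaling, and 61.0% of those without LPS, where 47.9% were. Groups that did not overlap made up 1 higher and 1 lower member without LPS (6.28% and 6.2% of all tested genes, 12.5% in all), and 1 higher and 4 lower members with LPS (12.6% and 12% of all tested genes, 24.6% in all). The LPS effect itself was not called different between the genotypes for any member by edgeR, where 2 members (Il15 and Il15ra) had an unadjusted p under 0.05. That test called 0.00479% of all genes, which is 1 gene, and DESeq2 called 118 genes with no member among them.

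**Figure D1:**
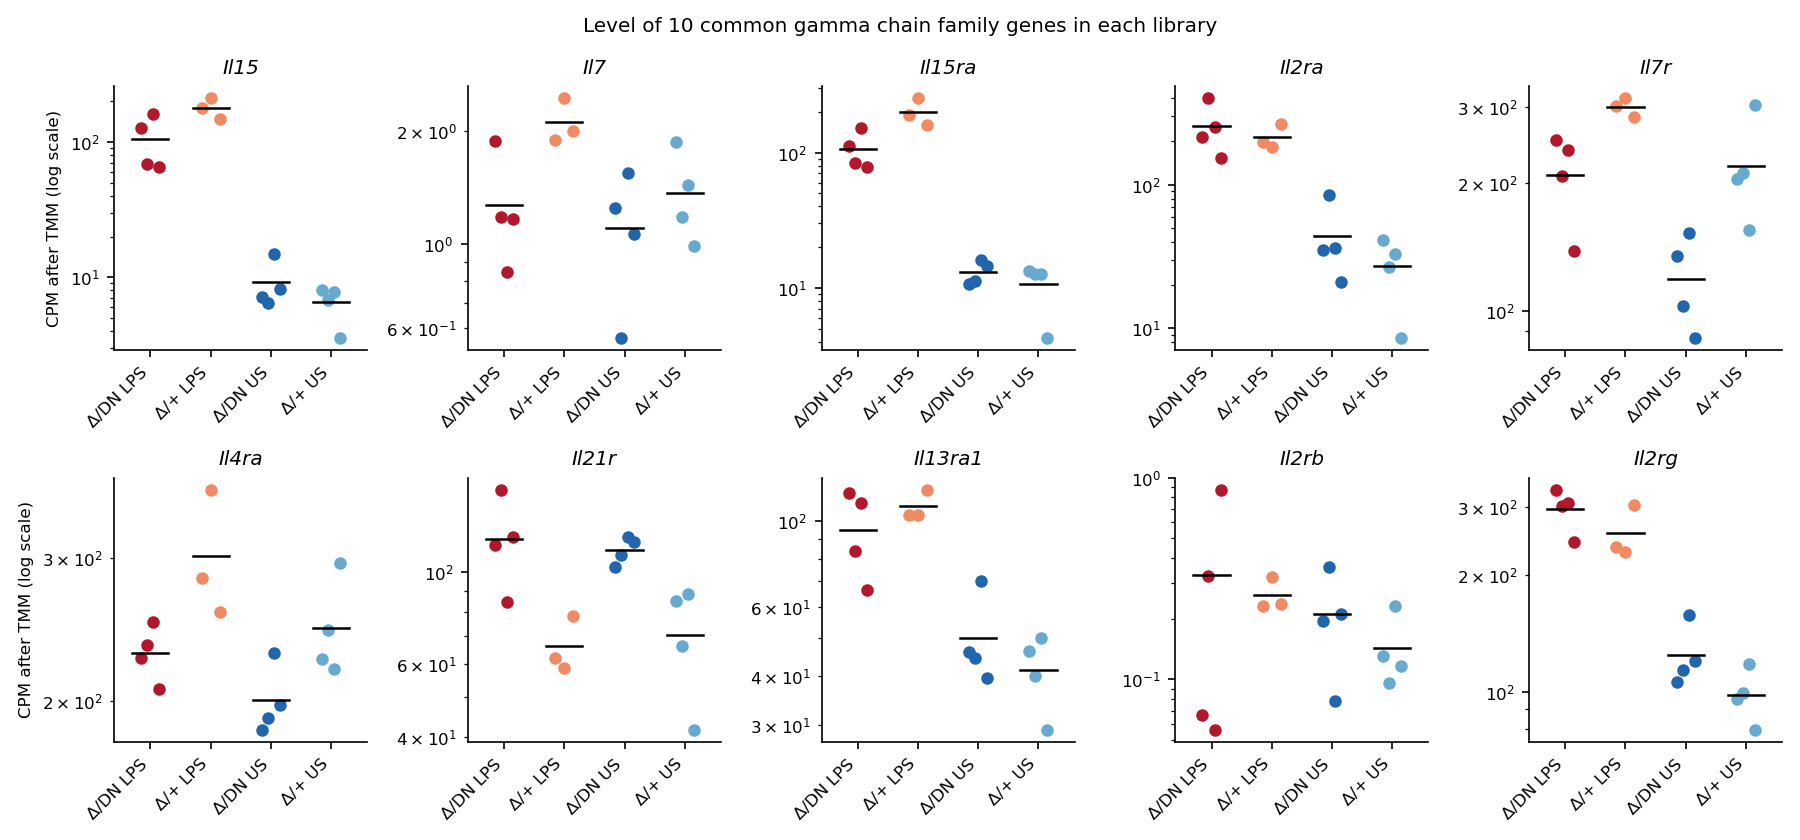
Level of each of the 10 genes in CPM after TMM scaling on a log axis, 1 point per library in the order of replicates, with the group mean as a black line; groups run Δ/DN LPS, Δ/+ LPS, Δ/DN US and Δ/+ US. The LPS groups of Il15, Il15ra, Il2ra and Il2rg lie above both US groups, while Il21r separates by genotype within each treatment and Il2rb and Il7 stay under 3 CPM.

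Il15, on chromosome 8, encodes the ligand that dendritic cells present to T and NK cells, and it had the largest LPS effect of the 10 genes in both genotypes. Its level was 126, 68.4, 162 and 66.0 CPM in the 4 Δ/DN LPS libraries, against 7.20, 6.40, 14.9 and 8.24 CPM in the Δ/DN US libraries of the same cultures. It was 178, 212 and 148 CPM in the 3 Δ/+ LPS libraries, against 8.03, 6.80, 7.76 and 3.53 CPM in the 4 Δ/+ US libraries. No LPS library overlapped a US library. The log2 LPS effect was 3.54 ± 0.40 (SE; 11.6-fold, edgeR adjusted p = 1.3e-05) in Δ/DN cells and 4.80 ± 0.43 (27.9-fold, adjusted p = 2e-06) in Δ/+ cells. Within cultures the ratio of LPS to US was 8.00 to 17.5 in the 4 Δ/DN cultures and 19.0 to 31.2 in the 3 Δ/+ cultures, so the ratios of the genotypes did not overlap. Of 18732 genes with reads in both libraries of all 7 cultures, 13.1% had ratios that did not overlap, 4.45% with Δ/DN under Δ/+; Il15 and Il15ra were the 2 of 10 members, both with Δ/DN under Δ/+. The difference between the 2 log2 LPS effects, Δ/DN minus Δ/+, was -1.26 ± 0.53 with an edgeR adjusted p of 0.504.

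Between genotypes, Il15 averaged 106 ± 46.8 CPM in Δ/DN LPS libraries and 179 ± 32.2 CPM in Δ/+ LPS libraries (SD, n = 4 and 3). Cultures 1 and 3 of the Δ/DN group lay near or within the Δ/+ range and cultures 2 and 4 well under it. The log2 difference of -0.83 ± 0.42 did not pass (edgeR adjusted p = 0.244). It passed when only library set 2 was used, with a difference of -0.88 and an adjusted p of 0.0469 from 2 Δ/DN and 3 Δ/+ LPS libraries. Without LPS the means were 9.18 ± 3.87 CPM in Δ/DN and 6.53 ± 2.07 CPM in Δ/+ libraries (SD, n = 4 each), a log2 difference of 0.43 ± 0.40 (adjusted p = 0.551).

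Il15ra, on chromosome 2, encodes the high-affinity alpha chain that holds IL-15 at the surface for trans-presentation, and its values ran beside those of its ligand. It stood at 112, 83.1, 153 and 78.6 CPM in Δ/DN LPS libraries, against 10.7, 11.2, 16.0 and 14.5 CPM in Δ/DN US libraries. In Δ/+ cells it was 191, 253 and 159 CPM with LPS, against 13.2, 12.6, 12.7 and 4.22 CPM in the 4 US libraries. All LPS libraries were above all US libraries, and all 3 Δ/+ LPS libraries were above all 4 Δ/DN LPS libraries. The log2 LPS effect was 3.02 ± 0.36 in Δ/DN cells (8.13-fold, edgeR adjusted p = 1.9e-05) and 4.23 ± 0.39 in Δ/+ cells (18.8-fold, adjusted p = 2e-06). With LPS, Il15ra had a Δ/DN minus Δ/+ log2 difference of -0.88 ± 0.39 that did not pass (edgeR adjusted p = 0.183). The US library of Δ/+ culture 4, which is the only Δ/+ library in set 3, bore on that result: without it the difference was -1.11 with an adjusted p of 0.0174, and in library set 2 alone it was -1.04 with an adjusted p of 0.0111. Without LPS the difference was 0.32 ± 0.36 (adjusted p = 0.632).

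Within cultures Il15ra rose 5.41 to 10.5 times in Δ/DN cells and 12.5 to 20.1 times in Δ/+ cells, without overlap. An exact 2-sided permutation test over the 7 cultures with both treatments gave p = 0.0286 for Il15ra (mean log2 change 2.99 in Δ/DN and 3.94 in Δ/+ cultures), the smallest p that 35 splits allow, and p = 0.0571 for Il15. Adjusted over the 10 members tested this way, both were 0.286. A fit with culture as a block gave differences of -1.06 for Il15 and -0.95 for Il15ra, with edgeR adjusted p-values over all genes of 0.107 and 0.109.

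**Figure D2:**
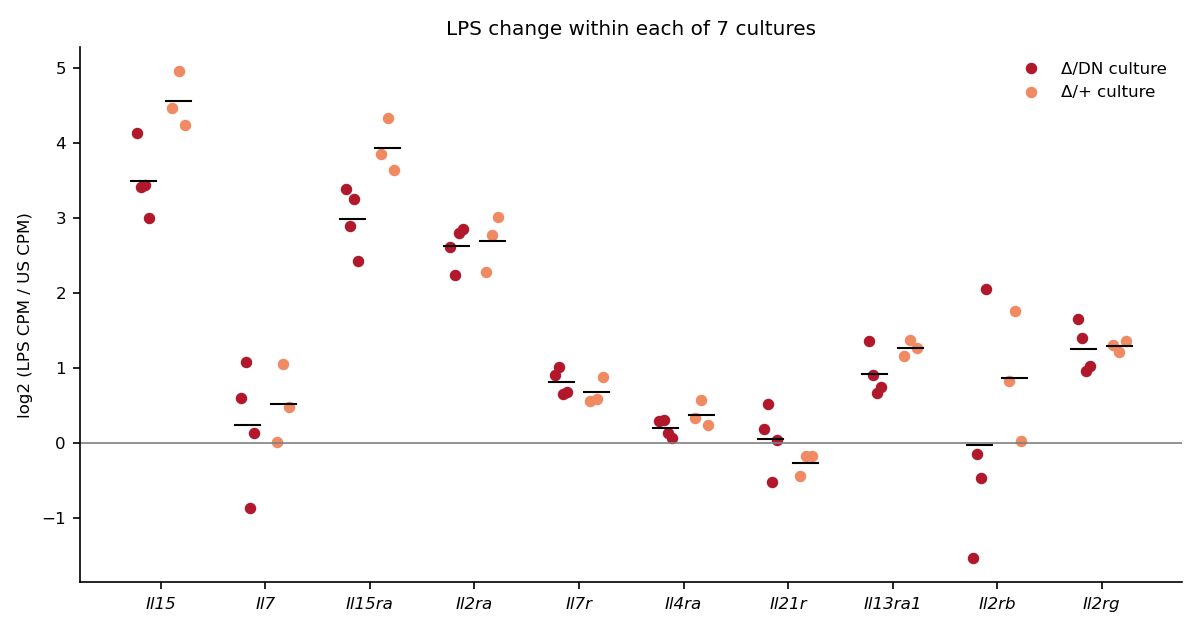
Change with LPS within each of the 7 cultures that had both treatments, as the log2 ratio of LPS to US CPM, with Δ/DN cultures left of Δ/+ cultures for each gene and group means as black lines. For Il15 and Il15ra the Δ/DN and Δ/+ points do not overlap, beside 13.1% of all genes; for the other 8 genes they do.

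The levels of interferon response genes, a class that LPS induces in dendritic cells, are set here beside those of Il15 and Il15ra. All 14 listed genes rose with LPS in both genotypes, with median log2 effects of 3.46 in Δ/DN and 4.71 in Δ/+ cells, and all 14 were also called with library totals alone. Irf1, a transcription factor gene, had log2 LPS effects of 2.47 ± 0.24 in Δ/DN and 2.67 ± 0.26 in Δ/+ cells (SE; edgeR adjusted p = 2.36e-06 and 1.66e-06). Mx1, an antiviral GTPase gene, had 3.31 ± 0.44 and 4.06 ± 0.46 (4.32e-05 and 1.22e-05). In the same order, Gbp2, another GTPase gene, had 2.96 ± 0.45 and 3.90 ± 0.48, and Irf9, a transcription factor gene of the same family as Irf1, had 1.21 ± 0.19 and 1.46 ± 0.21. With LPS, all 14 had negative Δ/DN minus Δ/+ differences (median -0.49; 11 of 14 with library totals alone), and none was called. Their summed level was 14970 to 27788 CPM in Δ/DN LPS libraries and 31477 to 37304 CPM in Δ/+ LPS libraries. Among US libraries it was highest in Δ/DN culture 3, at 3406 CPM where the other Δ/DN cultures had 651 to 780, and lowest in Δ/+ culture 4, at 330 CPM where the other Δ/+ cultures had 952 to 1358. Those were also the US libraries with the highest and the lowest Il15 and Il15ra. Not every library followed this order, and the gaps in Il15 were small. Δ/DN US culture 4 had 8.24 CPM of Il15 and 14.5 CPM of Il15ra at a summed level of 777 CPM. Δ/+ US culture 1 had 8.03 and 13.2 CPM at a summed level of 1210 CPM. Δ/DN LPS culture 3 had 162 CPM of Il15 at 27418 CPM of the list, and Δ/+ LPS culture 3 had 148 CPM at 31990 CPM. What part this list had in the genotype differences of the pair was not tested.

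**Figure D3:**
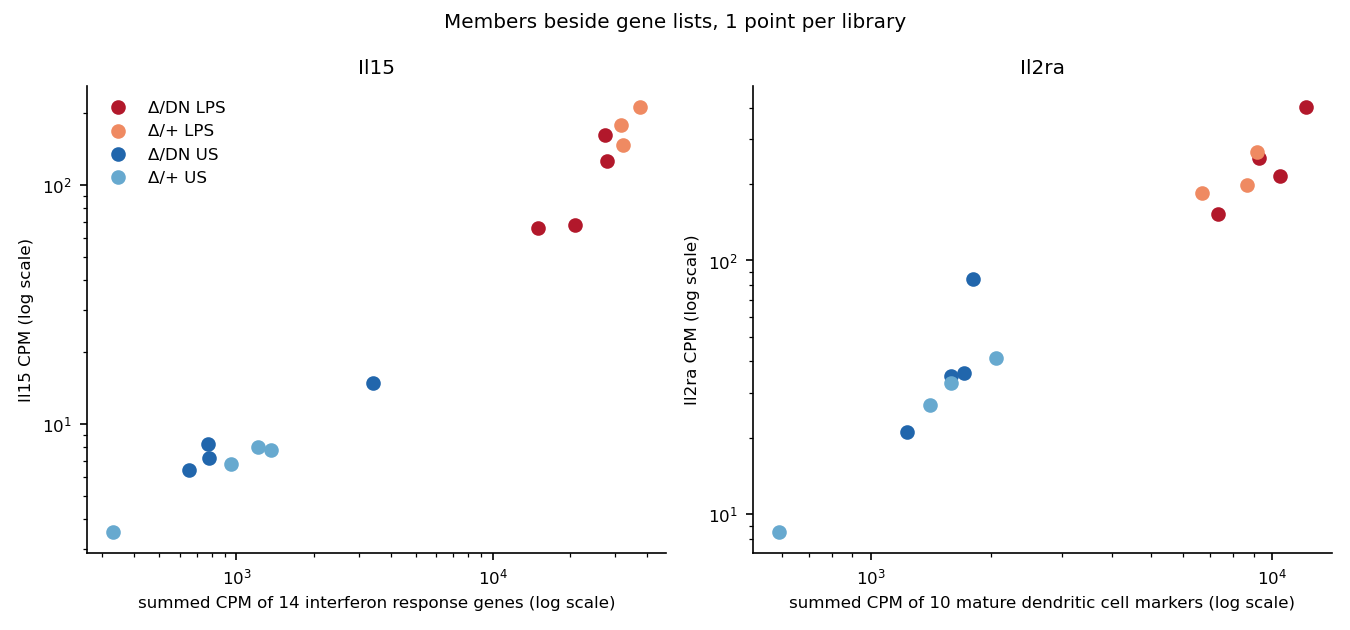
Left, Il15 against the summed level of 14 interferon response genes; right, Il2ra against the summed level of 10 mature dendritic cell markers; both in CPM on log axes, 1 point per library. The Δ/+ US library of culture 4 is lowest on both axes of both plots, at 3.53 CPM of Il15 and 8.50 CPM of Il2ra.

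Across all 15 libraries, the genes whose centred log2 CPM lay closest to that of Il15, out of 13793 compared, were the interferon-induced GTPase genes Gbp4 and Gbp3, with root mean square differences of 0.29 and 0.33. For Il15ra the closest gene was Il15 itself, at 0.33, followed by Trim21 at 0.36.

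Promoter sequence is shown for the 3 receptor genes Il15ra, Il2ra and Il7r, because 2 of them had the largest LPS effects among the receptors and the third differed between genotypes without LPS. Sequences are the 250 bases before a RefSeq start site on GRCm38.p6, in the direction of transcription; the tables were made on a later build, so these positions locate the sequence and not the counts. The capitals mark matches to the motifs searched on both strands from 250 bases before to 50 after each start: an IRF site (AANNGAAA), which was added after the sequences had been seen, and a gamma-activated site that STAT5 can bind (TTCNNNGAA). Il15ra has 2 listed starts; the first window (chr2:11705043-11705292, plus strand) has an IRF match on the minus strand.
Il15ra, first start: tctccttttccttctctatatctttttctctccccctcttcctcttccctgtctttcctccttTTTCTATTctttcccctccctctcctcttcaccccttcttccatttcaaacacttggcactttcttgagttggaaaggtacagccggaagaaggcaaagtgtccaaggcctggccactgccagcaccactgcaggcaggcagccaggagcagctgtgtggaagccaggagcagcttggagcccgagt
Il2ra (chr2:11642542-11642791, plus strand): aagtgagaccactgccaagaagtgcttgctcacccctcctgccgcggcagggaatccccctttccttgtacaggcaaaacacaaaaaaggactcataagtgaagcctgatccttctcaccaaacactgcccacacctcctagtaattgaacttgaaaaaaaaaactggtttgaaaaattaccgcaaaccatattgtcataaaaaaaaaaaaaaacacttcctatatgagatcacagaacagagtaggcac
Il7r (chr15:9529877-9530126, minus strand): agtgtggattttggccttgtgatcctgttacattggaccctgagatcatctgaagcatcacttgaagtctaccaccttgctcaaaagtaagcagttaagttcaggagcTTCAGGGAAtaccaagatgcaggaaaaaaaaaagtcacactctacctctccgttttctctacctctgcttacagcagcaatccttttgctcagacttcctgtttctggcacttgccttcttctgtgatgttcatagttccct
Il15ra, second start, bases 19 to 42 after the start: taaagcaaAAGCGAAAgcgaatac
The match at the second Il15ra start lies at bases 27 to 34 after it, and the match at the first lies 187 to 180 bases before it. In Il7r the gamma-activated site match lies 142 to 134 bases before the start. These letters are common: 23.9% of the 32851 promoters in the same table hold the IRF site and 8.30% the gamma-activated site. Besides these, Il2rg has an IRF match that spans its start. The interferon-stimulated response element core, the STAT6 site and the NF-kB site were each searched as a fixed pattern of letters. None of the 8 promoters found for 7 of the members matched these patterns, held by 3.44%, 6.95% and 1.47% of promoters in that order. Other forms of the NF-kB site were not searched, so a promoter without a match, that of Il2ra included, may still hold such a site. The IRF site overlaps in letters with the interferon-stimulated response element core.

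Il2ra lies next to Il15ra on chromosome 2, with no protein-coding gene between them, and encodes CD25, the alpha chain of the IL-2 receptor. Its level was 216, 402, 253 and 152 CPM in Δ/DN LPS libraries, against 35.1, 84.6, 36.1 and 21.03 CPM in Δ/DN US libraries. In Δ/+ libraries it was 199, 184 and 267 CPM with LPS, against 41.1, 26.8, 32.9 and 8.50 CPM without. The LPS groups were above the US groups without overlap, and Δ/DN culture 2 was the highest library in both treatments. The log2 LPS effect was 2.62 ± 0.37 (6.14-fold, edgeR adjusted p = 7.8e-05) in Δ/DN cells and 2.86 ± 0.39 (7.26-fold, adjusted p = 5.6e-05) in Δ/+ cells. In contrast to Il15ra, the ratios within cultures covered the same range, 4.75 to 7.25 in Δ/DN and 4.84 to 8.10 in Δ/+ cultures, and the 95% interval of the difference between the log2 effects ran from -1.25 to 0.76.

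Il2ra was not called between genotypes. Without LPS its log2 difference of 1.03 ± 0.37 had an edgeR adjusted p of 0.0946, and DESeq2 gave the same size with an adjusted p of 0.0158. With LPS it was 0.78 ± 0.42 (adjusted p = 0.269). The summed level of 10 mature dendritic cell markers was 591 CPM in the Δ/+ US library of culture 4, the one with the lowest Il2ra, against 1232 to 2049 CPM in the other US libraries; with LPS it was 7345 to 12135 CPM in Δ/DN and 6710 to 9181 CPM in Δ/+ libraries. All 10 of these markers had positive Δ/DN minus Δ/+ differences in both treatments, and none was called; their part in the Il2ra values was not tested. The 2 genes closest to Il2ra over the libraries were Kctd14 (0.27) and Nr4a3 (0.34), an orphan nuclear receptor gene.

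**Figure D4:**
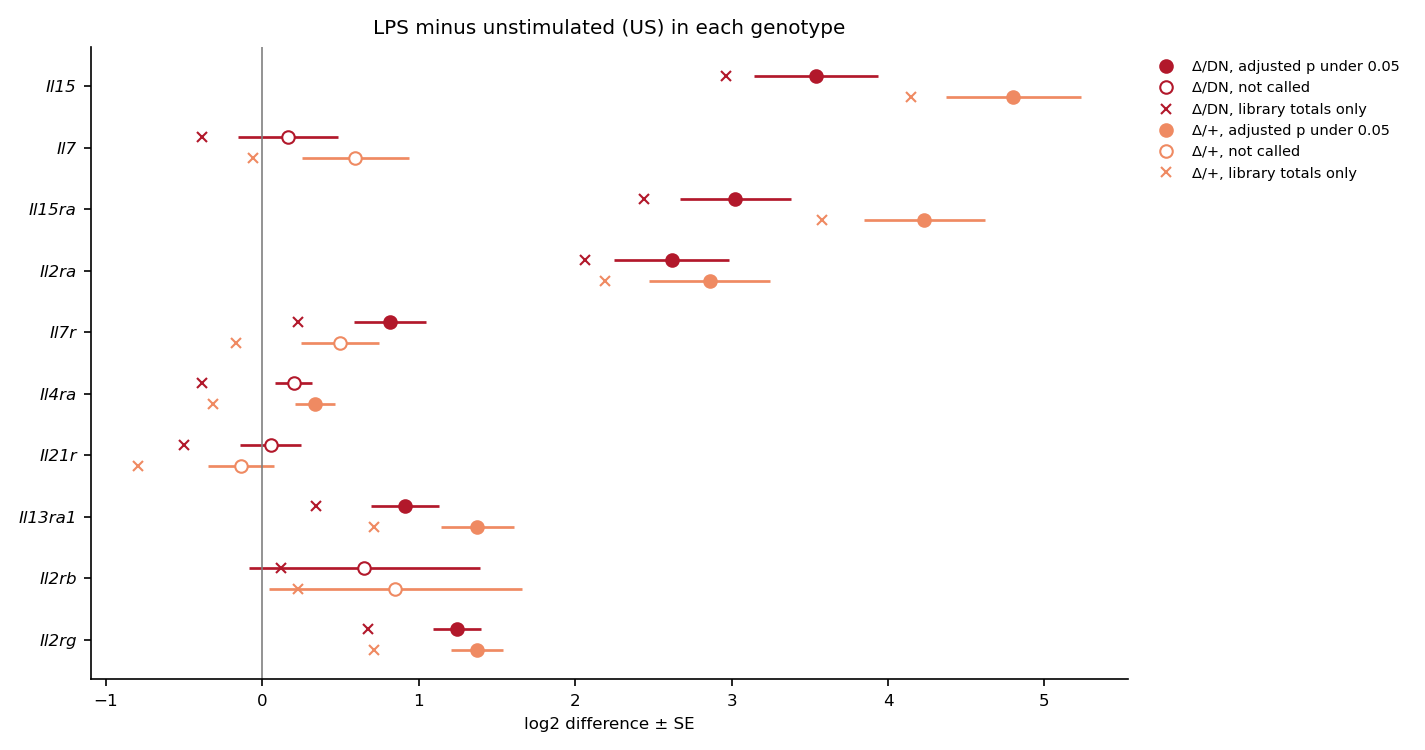
Log2 LPS effect of each gene (LPS minus US) ± SE in Δ/DN cells, upper row of each pair, and Δ/+ cells, lower row; filled circles passed an adjusted p of 0.05 by edgeR with TMM scaling, and crosses give the value with library totals alone. Il15, Il15ra, Il2ra and Il2rg are well above 0 on both scales, whereas Il4ra lies above 0 with TMM scaling and under it with library totals.

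Il7r, on chromosome 15, encodes the IL-7 receptor alpha chain, which is also part of the receptor for TSLP, a cytokine that acts on dendritic cells. It stood at 135, 103, 152 and 86.4 CPM in Δ/DN US libraries, against 204, 211, 154 and 304 CPM in Δ/+ US libraries. Each Δ/DN US library was below each Δ/+ US library, though the highest Δ/DN and the lowest Δ/+ value, both from cultures numbered 3, were close together. The log2 difference without LPS was -0.89 ± 0.23 (0.540-fold, edgeR adjusted p = 0.0291). It lost its call without Δ/+ US culture 2 (adjusted p = 0.0680), Δ/+ US culture 4 (-0.61, adjusted p = 0.193), Δ/DN US culture 2 (0.100) or Δ/DN US culture 4 (0.0688). The call was also lost with no filter on low counts (adjusted p = 0.0845). With LPS the libraries were at 251, 207, 238 and 138 CPM in Δ/DN cells, against 301, 315 and 285 CPM in Δ/+ cells. The groups did not overlap, and the log2 difference of -0.57 ± 0.26 had an adjusted p of 0.184.

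In Δ/DN cells Il7r rose with LPS by 0.82 ± 0.23 on the log2 scale (1.76-fold, edgeR adjusted p = 0.00881), and in each of the 4 cultures the LPS library was 1.56 to 2.01 times its US library. In Δ/+ cells the effect was 0.50 ± 0.25 (adjusted p = 0.124). The 3 Δ/+ cultures with both treatments had ratios of 1.48 to 1.85, and a fit with culture as a fixed block gave 0.68 with an adjusted p of 0.000106 (0.0292 with culture as a random effect). Δ/+ culture 4, which had no LPS library, was the highest US library, and without it the effect was 0.67 with an adjusted p of 0.0261. With library totals alone Il7r was not called in either genotype, at 0.23 in Δ/DN and -0.17 in Δ/+ cells. The closest genes were Ppm1l (0.19) and Tgoln1 (0.21).

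T cells, NK cells and innate lymphoid cells also carry Il7r, Il2ra, Il2rb and Il21r. The 16 listed markers of these cells summed to 16.1 to 31.5 CPM in Δ/DN LPS, 15.8 to 18.9 in Δ/+ LPS, 6.09 to 18.5 in Δ/DN US and 5.48 to 7.81 in Δ/+ US libraries. Of the 16, 2 to 7 had no read in a given library. Of the 9 that passed the filter, none was called between genotypes; 8 had positive Δ/DN minus Δ/+ differences without LPS (median 0.46) and 5 with it (0.07). With LPS 2 were called higher and 3 lower in Δ/DN cells, and 3 higher and 1 lower in Δ/+ cells. Of all tested genes, 48.2% and 47.7% were called in either direction. The T cell receptor subunit gene Cd3e was at 0.218 CPM or less in every library, and the NK cell receptor gene Ncr1 at 0.0645 CPM or less. Other markers of the list made up most of its sums. What part such cells had in the values of the members was not tested.

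Il4ra, on chromosome 7, encodes the chain shared by the IL-4 and IL-13 receptors. With LPS it was 226, 234, 250 and 207 CPM in Δ/DN libraries, against 283, 364 and 257 CPM in Δ/+ libraries in which the lowest Δ/+ library was just above the highest Δ/DN library. The log2 difference was -0.47 ± 0.13 (0.720-fold, edgeR adjusted p = 0.0427). This call was kept in only 5 of the 15 refits that left out 1 library each, where the adjusted p ran from 0.0275 to 0.218, the highest without Δ/+ LPS culture 2 (difference -0.32). It was also lost in library set 2 alone (adjusted p = 0.0821), without the term for library set (0.0866) and with library totals alone (0.114). Without LPS the levels were 184, 190, 229 and 198 CPM in Δ/DN and 225, 245, 219 and 295 CPM in Δ/+ libraries, which overlapped, with a log2 difference of -0.33 ± 0.12 (adjusted p = 0.0848). This one was called without the libraries of Δ/DN culture 3 (-0.39, adjusted p = 0.0435).

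The LPS effect on Il4ra was 0.20 ± 0.12 on the log2 scale in Δ/DN cells (adjusted p = 0.177) and 0.34 ± 0.13 in Δ/+ cells (1.27-fold, edgeR adjusted p = 0.0401). With library totals alone both turned to lower and were called, at -0.38 (adjusted p = 0.00645) and -0.31 (0.0336), so the direction rests on the scaling. The Δ/+ call was also lost when any of Δ/+ LPS cultures 1 and 2 or Δ/+ US cultures 1, 2 and 3 was left out, with adjusted p-values of 0.0529 to 0.270. Mterf3 and Rbm45 were the closest genes, both at 0.09, where the log2 CPM of Il4ra had an SD of 0.26. An annotated antisense gene shares 571 exon bases with Il4ra, and no source used here says whether counting used strand, so reads of that partner may be included.

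Il21r is the immediate neighbour of Il4ra on chromosome 7 and encodes the receptor for IL-21. It was the 1 member called in both treatments between genotypes, and the fold stood the other way from that of its neighbour. With LPS it was 116, 158, 84.8 and 122 CPM in Δ/DN libraries, against 62.2, 58.8 and 78.4 CPM in Δ/+ libraries. Without LPS it was 103, 110, 122 and 118 CPM in Δ/DN libraries, against 85.0, 66.3, 88.7 and 41.7 CPM in Δ/+ libraries. Every Δ/DN library lay above every Δ/+ library of its treatment. The log2 difference was 1.00 ± 0.23 with LPS (2.01-fold, edgeR adjusted p = 0.0218) and 0.81 ± 0.21 without (1.76-fold, adjusted p = 0.0269).

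The difference without LPS was smaller in library set 2. There, with 2 Δ/DN and 3 Δ/+ US libraries, the difference was 0.40 (adjusted p = 0.191), and without the US library of Δ/+ culture 4, the lowest at 41.7 CPM, it was 0.55 (0.172). The call was further lost without Δ/+ US culture 2, Δ/DN US culture 2 or Δ/DN US culture 4, with adjusted p-values of 0.0674 to 0.0846. With LPS it was lost without Δ/+ LPS culture 1 (0.0845), Δ/+ LPS culture 2 (0.116) or Δ/DN LPS culture 2 (0.100), with differences of 0.85 to 0.96. With no filter on low counts both calls were lost (adjusted p = 0.0551 with LPS and 0.0815 without). The call without LPS was also lost without the term for library set (0.0687). LPS itself did not move Il21r past the test, at 0.05 ± 0.19 in Δ/DN cells (adjusted p = 0.846) and -0.14 ± 0.21 in Δ/+ cells (0.643). Within cultures the ratio of LPS to US was 0.697 to 1.43 in Δ/DN and 0.732 to 0.886 in Δ/+ cultures. With library totals alone Il21r was called lower with LPS, at -0.50 (adjusted p = 0.0431) and -0.79 (0.00685), as were most genes called on that scale. The closest genes were Dock8 (0.20), a regulator of the actin cytoskeleton in leukocytes, and H4c3 (0.21), a histone gene with near-identical copies whose counts are uncertain.

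**Figure D5:**
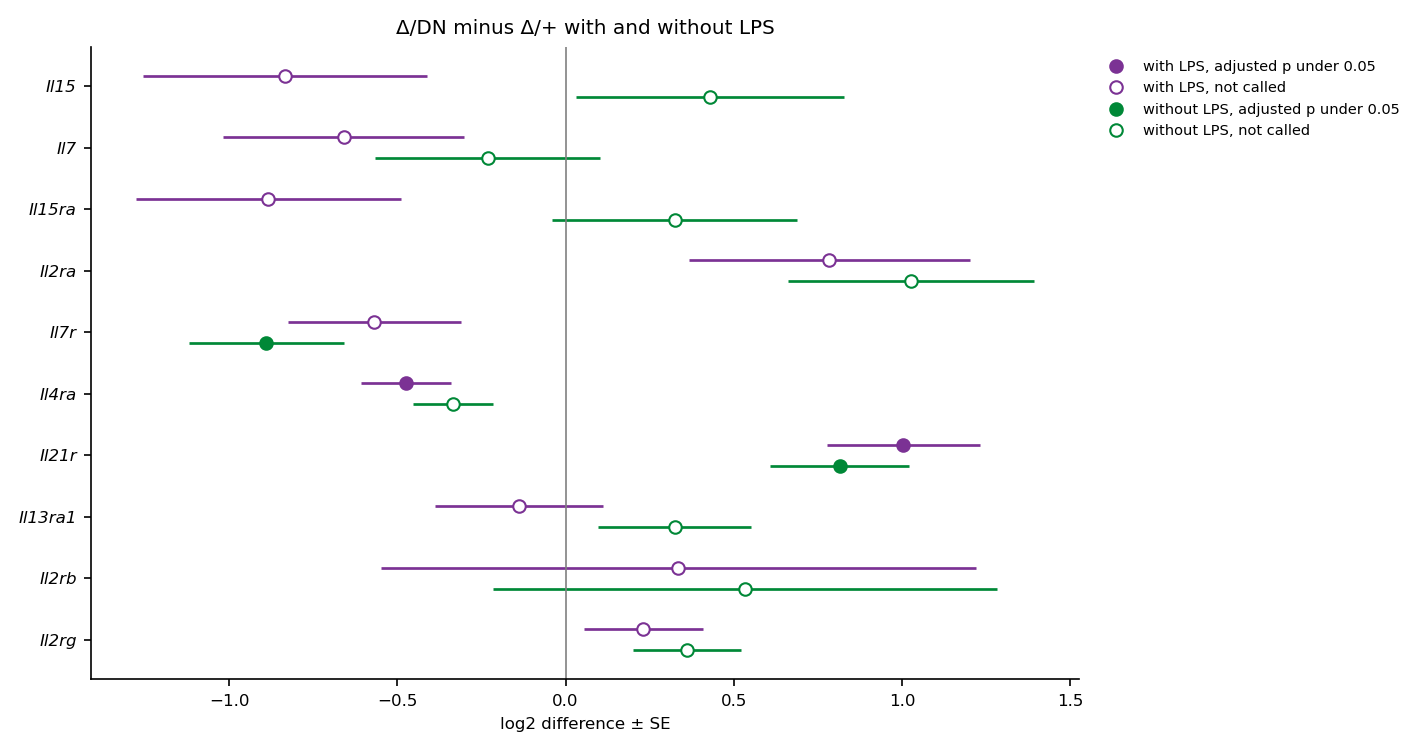
Log2 difference Δ/DN minus Δ/+ ± SE for each gene, with LPS in the upper row of each pair and without LPS in the lower; filled circles passed an adjusted p of 0.05 by edgeR. Il21r is filled in both treatments at 1.00 and 0.81, Il4ra with LPS at -0.47 and Il7r without LPS at -0.89; Il15 and Il15ra lie under 0 with LPS and above it without, none of the 4 points filled.

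Il13ra1, on the X chromosome, encodes a chain that pairs with the Il4ra product to form the IL-13 receptor found on myeloid cells. It was 118, 83.8, 111 and 66.3 CPM in Δ/DN LPS libraries, against 46.2, 44.6, 70.0 and 39.6 CPM in Δ/DN US libraries. In Δ/+ cells it was 103.5, 103.6 and 120 CPM with LPS, against 46.4, 39.9, 50.2 and 29.1 CPM without. The LPS and US groups overlapped in Δ/DN cells, where culture 3 was highest without LPS and culture 4 lowest with it, and did not overlap in Δ/+ cells. The log2 LPS effects were 0.91 ± 0.22 (1.88-fold, edgeR adjusted p = 0.00335) in Δ/DN and 1.37 ± 0.23 (2.59-fold, adjusted p = 0.000263) in Δ/+ cells. With library totals alone they were 0.34 (adjusted p = 0.0655) and 0.71 (0.00176). Genotype differences were -0.14 ± 0.25 with LPS and 0.32 ± 0.23 without, with adjusted p-values of 0.779 and 0.404. H2-M3, an MHC class I-like gene, and Tnfaip8l3 were closest, at 0.14 and 0.15.

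The common gamma chain gene Il2rg, on the X chromosome, rose with LPS in both genotypes. It stood at 332, 301, 307 and 243 CPM in Δ/DN LPS libraries, against 106, 114, 158 and 120 CPM in Δ/DN US libraries. In Δ/+ libraries it was 237, 229 and 304 CPM with LPS, against 96.0, 99.0, 118 and 79.6 CPM without. Every LPS library lay above every US library. The log2 LPS effects were 1.25 ± 0.15 (2.37-fold, edgeR adjusted p = 1.1e-05) in Δ/DN and 1.37 ± 0.17 (2.59-fold, adjusted p = 8e-06) in Δ/+ cells, and the 95% interval of their difference was -0.57 to 0.31. Within cultures the LPS library was 1.94 to 3.14 times its US library in Δ/DN cells and 2.31 to 2.57 times in Δ/+ cells. Genotype differences were 0.23 ± 0.18 with LPS (adjusted p = 0.450) and 0.36 ± 0.16 without (0.163); the second was called with library totals alone (0.42, adjusted p = 0.0416). Dbnl (0.11) and Apaf1 (0.12), which encodes a core protein of the apoptosome, were closest. Another annotated gene of GRCm38 shares 728 exon bases with Il2rg on the same strand and was not listed in the tables.

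Il2rb, on chromosome 15, encodes the beta chain that signals for IL-2 and IL-15 together with the gamma chain, and it was close to the limit of detection. It had 4 to 74 reads per library, or 0.0562 to 0.874 CPM, where a count of 3 corresponds to 0.0278 to 0.0655 CPM. The Δ/DN LPS libraries held 0.0667, 0.325, 0.0562 and 0.874 CPM and the Δ/+ LPS libraries 0.232, 0.322 and 0.236 CPM. The highest value belonged to Δ/DN culture 4, the library with the highest sums of the lymphoid (31.5 CPM) and neutrophil (931 CPM) marker lists; their part in it was not tested. No comparison was called, and the 95% interval of the log2 LPS effect ran from -0.79 to 2.10 in Δ/DN and from -0.73 to 2.43 in Δ/+ cells. Such counts can show only large changes. Rhbdl3, the closest gene, was at 0.53, where the log2 CPM of Il2rb had an SD of 0.93 over the libraries.

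Il7, on chromosome 3, encodes the second ligand measured and was low, with 50 to 156 reads per library. It was 1.89, 1.18, 0.842 and 1.17 CPM in Δ/DN LPS libraries, against 1.90, 2.45 and 2.00 CPM in Δ/+ LPS libraries. The groups did not overlap but nearly touched, and the log2 difference of -0.66 ± 0.36 did not pass (edgeR adjusted p = 0.271). Without LPS it averaged 1.11 ± 0.41 CPM in Δ/DN and 1.37 ± 0.38 CPM in Δ/+ libraries (SD, n = 4 each). The log2 LPS effects of 0.17 ± 0.32 and 0.59 ± 0.34 were not called (adjusted p = 0.704 and 0.169). An antisense gene listed in the tables shares 105 exon bases with it.

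Levels were set against each other only per length, as CPM per kilobase of the gene length given in the deposited tables. On that scale Il2rg ranked first in Δ/DN LPS cells at 69.9 ± 8.92 and in Δ/+ LPS cells at 60.6 ± 9.72 (SD, n = 4 and 3). Il2ra was next at 57.7 ± 23.9 in Δ/DN LPS and 48.9 ± 9.98 in Δ/+ LPS cells, and its libraries overlapped those of Il2rg in both groups. Il13ra1 (25.5 ± 6.48 and 29.3 ± 2.57) and Il4ra (22.2 ± 1.74 and 29.2 ± 5.39) followed, with libraries that overlapped each other in both groups. Il7r stood at 12.4 ± 3.00 in Δ/DN LPS and 17.9 ± 0.901 in Δ/+ LPS cells, Il21r at 10.7 ± 2.68 and 5.92 ± 0.933, Il15 at 4.13 ± 1.83 and 6.9995 ± 1.26, and Il15ra at 2.70 ± 0.866 and 5.07 ± 1.21. Without LPS, Il2rg had 29.4 ± 5.48 in Δ/DN US cells, where it ranked first, and 23.2 ± 3.71 in Δ/+ US cells, where Il4ra at 23.8 ± 3.35 lay within its spread. Il15 (0.359 ± 0.151 in Δ/DN US and 0.255 ± 0.0809 in Δ/+ US cells) and Il15ra (0.331 ± 0.0653 and 0.270 ± 0.109) were then ranks 7 and 8 in Δ/DN US cells, and 8 and 7 in Δ/+ US cells. Il7 and Il2rb ranked 9 and 10 in every group.

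The order depends on the length used. The deposited lengths of Il15ra, Il2rb and Il2rg exceed the whole annotated gene; that of Il15ra is 39571 bases where the gene spans 29028. Per kilobase of annotated exons, a length added after the data had been seen, Il15 ranked 2 in both LPS groups, at 46.7 ± 20.7 in Δ/DN and 79.3 ± 14.3 CPM per kilobase in Δ/+ cells. On that length Il2ra ranked 4 in Δ/DN LPS and 6 in Δ/+ LPS cells, and Il13ra1 ranked 7 in both. In Δ/+ US cells Il7r then ranked 1. Il2rg was first in both LPS groups with either length, and Il7 and Il2rb last in all 4 groups.

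Of 9 other genes of the family, 5 passed the filter on low counts; Il4, Il9, Il21 and Il13ra2 did not. Tslp, the cytokine that signals through Il7r and Crlf2, rose with LPS by 5.82 ± 0.57 on the log2 scale in Δ/DN cells and by 6.16 ± 0.58 in Δ/+ cells (edgeR adjusted p = 1.21e-06 and 7.99e-07). It reached 1.44 to 4.02 CPM in Δ/DN LPS libraries and 4.32 to 5.22 CPM in Δ/+ LPS libraries, with at most 0.117 and 0.131 CPM in the US libraries. Crlf2, its receptor chain, rose by 0.52 ± 0.13 in Δ/DN cells (adjusted p = 0.00440) and by 0.73 ± 0.14 in Δ/+ cells (0.000670), but with library totals alone it was at -0.05 and 0.07 and not called. Il2 was called higher with LPS in Δ/+ cells (2.63 ± 0.73, adjusted p = 0.00721), from 93 reads in all over the 3 libraries, and was at -0.09 ± 0.71 in Δ/DN cells (0.933). Il13 was called in Δ/+ cells too, where the LPS libraries had 0.0262 to 0.204 CPM and no US library had a read; that call was lost with library totals alone (adjusted p = 0.0545). Il9r was not called in any comparison, nor was any of the 5 between genotypes.

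The genes of the kinases and STAT proteins downstream of these receptors rose with LPS in most cases. In Δ/DN cells 8 of 9 listed genes were called higher, all but Jak3, beside 23.1% of all tested genes. In Δ/+ cells 8 of 9 were, all but Stat6, beside 22.4%. On library totals alone, 6 were called higher in each genotype, Jak3 and Tyk2 were not called, and Stat6 was called lower. Stat5b and Stat5a, the main effectors of IL-2, IL-7 and IL-15, had log2 LPS effects of 1.45 ± 0.08 and 2.64 ± 0.16 in Δ/DN cells (edgeR adjusted p = 1.45e-08 and 2.02e-08) and of 1.49 ± 0.09 and 3.04 ± 0.17 in Δ/+ cells (1.74e-08 and 1.06e-08). Stat5a averaged 535 ± 92.3 CPM in Δ/DN LPS libraries and 639 ± 49.0 CPM in Δ/+ LPS libraries. Jak2, a kinase of many cytokine receptors, rose by 1.63 ± 0.14 in Δ/DN and 2.19 ± 0.15 in Δ/+ cells, and Stat3, the main effector of IL-21, by 1.70 ± 0.16 and 2.05 ± 0.17. Jak3, the kinase bound to the gamma chain, and Stat6, the effector of IL-4 and IL-13, are named as the exceptions, after their values had been seen. Jak3 had 0.31 ± 0.13 in Δ/DN (adjusted p = 0.0692) and 0.54 ± 0.14 in Δ/+ cells (0.00631), and Stat6 had 0.31 ± 0.09 (0.00759) and -0.05 ± 0.10 (0.702). Between genotypes Tyk2 was higher in Δ/DN cells with LPS (0.45 ± 0.12, adjusted p = 0.0328) and without (0.36 ± 0.10, 0.0408). Jak1, the kinase bound to the private chains, was lower with LPS (-0.44 ± 0.12, 0.0403), a call that was lost with library totals alone (-0.31, adjusted p = 0.0643). Of all tested genes 8.6% were called between genotypes with LPS and 10.5% without. With library totals alone 3 of the 9 were called higher with LPS and 2 without. On that scale 1763 and 1383 of the 20865 tested genes were called, 80.8% and 61.0% of those higher in Δ/DN cells.

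Of 11 feedback inhibitors and STAT5 targets, 9 were called higher with LPS in each genotype. The share of all tested genes called higher was 23.1% in Δ/DN and 22.4% in Δ/+ cells. Bcl2, 1 of the 11, was called lower in each genotype, and Socs2 was not called. Scaled by library totals alone, 8 were called higher and 2 lower in Δ/DN cells, and 7 higher and 3 lower in Δ/+ cells. The lower ones were Bcl2 and Socs2 in both genotypes, and Mcl1 in Δ/+ cells. Pim1, a kinase gene induced by STAT5, had log2 LPS effects of 1.57 ± 0.13 in Δ/DN and 1.32 ± 0.14 in Δ/+ cells (edgeR adjusted p = 2.06e-07 and 1.77e-06), and Osm, the gene of the cytokine oncostatin M, had 1.68 ± 0.15 and 1.76 ± 0.16. In Δ/DN cells the related kinase gene Pim2 (1.90 ± 0.21) and the inhibitor gene Socs3 (3.07 ± 0.33) came next by p-value, and in Δ/+ cells the inhibitor gene Socs1 (2.80 ± 0.26) and the cyclin gene Ccnd2 (3.36 ± 0.36).

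Between genotypes 1 of the 11 was higher and 1 lower in each treatment, beside 8.6% of all tested genes with LPS and 10.5% without. By library totals alone 3 of the 11 were higher and 1 lower with LPS, and 1 higher and 3 lower without. Of the 20865 tested genes, 1763 and 1383 were called on that scale. Bcl2, an anti-apoptotic gene, averaged 7.96 ± 2.11 CPM in Δ/DN LPS libraries against 2.48 ± 1.40 in Δ/+ LPS libraries, and 23.7 ± 5.67 CPM in Δ/DN US against 11.03 ± 4.89 in Δ/+ US libraries (edgeR adjusted p = 0.0190 and 0.0395). Its log2 LPS effect was -1.59 ± 0.33 in Δ/DN and -2.24 ± 0.39 in Δ/+ cells. Osm averaged 60.0 ± 8.17 CPM in Δ/DN LPS and 98.3 ± 14.4 CPM in Δ/+ LPS libraries, and 18.8 ± 4.80 CPM in Δ/DN US and 29.5 ± 0.955 CPM in Δ/+ US libraries (adjusted p = 0.0181 and 0.0162).

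Of 15 listed genes of the response to IL-4 and IL-13, 14 were tested. With LPS 4 were called higher and 2 lower in Δ/DN cells, and 3 higher and 2 lower in Δ/+ cells. Of all tested genes, 48.2% and 47.7% were called in either direction. The chemokine genes Ccl22 and Ccl17 rose by 2.98 ± 0.28 and 1.65 ± 0.21 on the log2 scale in Δ/DN cells and by 2.83 ± 0.29 and 1.73 ± 0.22 in Δ/+ cells. Cdh1, the E-cadherin gene, had log2 LPS effects of -1.34 ± 0.17 and -1.59 ± 0.20 in the same order. On library totals alone, 3 were called higher and 5 lower in Δ/DN cells and 2 higher and 3 lower in Δ/+ cells. Without LPS, Ccl17 was higher and Arg1 and Tgm2 were lower in Δ/DN than in Δ/+ cells, beside 10.5% of all tested genes called. With LPS, Pdcd1lg2 was higher and Arg1 and Clec10a were lower, beside 8.6% of all tested genes called. Arg1, the arginase gene, showed log2 differences of -2.12 ± 0.57 with LPS and -2.32 ± 0.52 without (edgeR adjusted p = 0.0423 and 0.0206). Over the list the median difference was -0.20 with LPS and 0.03 without, beside 0.01 over all tested genes in both.

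All 10 listed genes of the response to LPS were called higher with LPS in both genotypes, under TMM scaling and with library totals, with median log2 effects of 6.31 in Δ/DN and 6.15 in Δ/+ cells. Between genotypes 1 of the 10 was called, beside 10.5% of all tested genes without LPS and 8.6% with it. That gene, Il12b, encodes the p40 chain of IL-12 and IL-23. It was higher in Δ/DN than in Δ/+ cells without LPS (1.61 ± 0.29 on the log2 scale, edgeR adjusted p = 0.00834). By library totals alone 2 of the 10 were called higher in Δ/DN cells with LPS, where none was with TMM scaling. That scale called 1763 of the 20865 tested genes, 80.8% of them higher in Δ/DN cells.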

How the data were processed

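RNA was sequenced from 15 libraries after ribosomal RNA depletion, per the labels' protocols. The authors deposited a table for each library with a gene length and unnormalised counts (whole numbers that sum to the library's total). Trimmomatic 0.33, FastQC, HISAT2 2.2.1, bedtools, featureCounts and edgeR appear in the submitters' processing notes, as do the builds GRCm39 and mm39; neither settings nor strand use in counting are given there. Counts were tested with edgeR 4.0.16 (R 4.3.3): TMM scaling, filterByExpr at its minimum count of 10, a quasi-likelihood F test with robust dispersion, and Benjamini-Hochberg adjustment over 20865 genes. One model held 4 groups and library set, a gene was called at an adjusted p under 0.05, and the script was tested on simulated data. SE is the size of the log2 difference from the fitted coefficients, without the shrinkage edgeR applies to the printed differences, divided by the square root of F. The 95% intervals use it with a normal quantile and can be narrower than the F test allows. For the genotype difference of Il15 with LPS the interval was -1.66 to -0.0096, where the F test gave an unadjusted p of 0.0707. The members and gene lists were chosen with earlier results of these data known. Of each list, up to 4 called genes per comparison with the smallest p are named, and others only as counts unless stated. For each member the 2 genes with the smallest root mean square difference in centred log2 CPM (prior count 2) are named. These differences cannot be ranked between members, whose own SD of log2 CPM ran from 0.26 for Il4ra to 2.20 for Il15. Exon lengths and overlaps came from GENCODE M21 on GRCm38, and promoters from RefSeq on GRCm38.p6; symbols matched 7 members with 8 promoters.

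Groups and replicates came from the sample titles. No label says that cultures came from separate mice, so p-values measure the spread between these libraries. Library names tie the LPS and US libraries of a culture together; their deviations from the group means correlated at 0.0643 to 0.428 (median 0.221, 7 pairs), against -0.227 to 0.138 for other pairs. No 2 replicates agreed within sampling noise. The main model took all libraries as independent, and a culture block was an alternative. Further alternatives were DESeq2 1.42.0, RLE size factors, no filter, no library set term, library set 2 alone and leaving out each library or Δ/DN cultures 3 and 4. Library totals without TMM factors, exon lengths and the IRF motif were added after the data had been seen. Floors of 3 counts cover counting error only, since no source used here mentions molecular identifiers; the intervals of log2 differences rest on the spread between libraries.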

Additional observations from a re-analysis of the deposited data

Results flagged for a closer look

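Il15ra in the unstimulated Δ/+ library of culture 4 stood at 4.22 CPM, far below the other 3 libraries of its group at 12.6 to 13.2 CPM; the gap took 0.929 of the group's range. It was 1 of 30 gene and group combinations examined for such a gap, where chance gives about 1 in 20. The same library had the lowest Il15, Il2ra, Il2rg, Il13ra1 and Il21r and the highest Il7r and Il4ra among the unstimulated Δ/+ libraries, and the lowest summed levels of the interferon response and mature dendritic cell lists. It is the only Δ/+ library of set 3 and has no LPS partner, so whether its set or its culture goes with these values cannot be told apart.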

How the results depend on the processing

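Il15, Il15ra, Il2ra and Il2rg were called higher with LPS in both genotypes under all 25 alternatives that gave a value. The genotype differences depended more on the choices made.

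Counts of members called between genotypes were 2 in each treatment. Without LPS, 0 were called with no filter on low counts, 1 without the library set term, 1 without Δ/DN cultures 3 and 4, 1 in library set 2 alone 4 with the replicate number shared across genotypes as a block, and 3 with DESeq2, with library totals and without culture 3; with LPS, 1 with no filter, 1 without the set term, 1 with library totals, and 3 in library set 2 alone, without cultures 3 and 4 and with the number block. Leaving out 1 library at a time gave 0 to 3 members without LPS and 0 to 2 with it; for LPS effects it gave 5 to 7 in Δ/+ and 6 throughout in Δ/DN cells. Over all genes, the 2184 calls without LPS became 3460 with DESeq2, 1270 without the set term, 3705 without Δ/DN culture 3, 1417 without cultures 3 and 4, 1271 in set 2, 3994 with the number block and 1383 with library totals, and 174 to 3403 without 1 library. The 1795 calls with LPS became 3017 with DESeq2, 2878 without culture 3, 3809 with the number block, and 90 to 2233 without 1 library. The 1 call on the difference between LPS effects became 34 with no filter, 118 with DESeq2, 44 without culture 3, 9 without cultures 3 and 4, 4 in set 2, 156 and 2 with culture as a fixed and a random block, 0 with library totals, and 0 to 15 without 1 library. Numbers shared across genotypes did not pair libraries (correlations of -0.117 to 0.146), and the culture block changed no member's call except that of Il7r with LPS in Δ/+ cells. The cause of these shifts was not tested.

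Differences in log2 changed sign for some members. With library totals, Il4ra (-0.38 and -0.31), Il21r in Δ/DN cells (-0.50), Il7 (-0.39 in Δ/DN, -0.059 in Δ/+ cells) and Il7r in Δ/+ cells (-0.17) had LPS effects under 0, and Il13ra1 had a genotype difference with LPS of 0.0047. Without Δ/DN cultures 3 and 4, or in set 2 alone, genotype differences without LPS were -0.16 and -0.16 for Il15, -0.25 and -0.25 for Il15ra, and -0.019 and -0.021 for Il13ra1. In the same order, Il2rb had -0.41 and -0.40 between genotypes with LPS and -0.47 and -0.45 as its LPS effect in Δ/DN cells, and the difference between LPS effects was 0.23 and 0.25 for Il2rg and 0.26 and 0.28 for Il7. That of Il2rg was 0.025 without culture 3, and Il2rb had -0.22 between genotypes with LPS with a random culture block. Leaving out 1 library gave ranges that crossed 0 between genotypes without LPS for Il15 (-0.010 to 0.63), Il15ra (-0.18 to 0.49) and Il7 (-0.46 to 0.12), and with LPS for Il2rb (-0.61 to 0.95). They also crossed 0 for the LPS effect in Δ/DN cells of Il21r (-0.0595 to 0.17), Il2rb (-0.70 to 1.12) and Il7 (-0.13 to 0.43), and for the difference between LPS effects of Il2ra (-0.48 to 0.013), Il2rb (-1.32 to 0.35), Il2rg (-0.24 to 0.062) and Il4ra (-0.24 to 0.017). Of all sign changes, 3 were called after the change, all with library totals. Depth limits Il2rb and Il7, whose counts stayed at 74 and 156 reads or fewer per library.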
